A study of Drosophila melanogaster and Drosophila simulans and Drosophila sechellia with 48 samples.

Results

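The change in gene expression between larvae of the 3rd instar and early pupae was measured in males of Drosophila sechellia, a fruit fly of the Seychelles that breeds on the noni fruit. The data were 6 two-colour cDNA arrays of 48 in the series, 3 hybridised with RNA of early pupal males and 3 with RNA of larval males. They were chosen by their labels alone, without regard to any measured value. The early pupal males were collected 4 h after puparium formation according to the labels, while the methods of the study give 2 h. The larval males were collected 96 h after emergence from the egg. Both groups were whole untreated males of the strain Cousin Island, and each group came from 1 pool of 25 males whose mRNA went through 2 rounds of amplification. The 3 arrays of a group were therefore technical repeats of that pool. All arrays carried cDNA probes of D. melanogaster, and every sample was set against 1 common reference, unamplified mRNA of D. melanogaster males of strain 14021-0231.00 mixed in equal parts from 4 stages. The same early pupal and larval stages of D. simulans (strain 14021-0251.2), of F1 hybrid males from D. simulans mothers and D. sechellia fathers, and of D. melanogaster (strain 14021-0231.00) were used for comparison, with 3 arrays per group. The hybrid arrays held 3 separate pools per stage, but the duplicate-spot differences of adult hybrid arrays 1 and 2 correlated at 0.61 and these were counted as 1.

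A fly larva stops feeding at the end of its last instar, and a pulse of the steroid hormone ecdysone then turns its cuticle into the hard, tanned puparium. In the hours that follow, larval tissues such as salivary glands, midgut and most body muscles begin to be dismantled, while the imaginal discs evert and build the body wall and appendages of the adult. Ecdysone acts through a nuclear receptor and a cascade of transcription factors, which switch on later groups of genes in each tissue. The comparison asked which transcripts were at different levels on the 2 sides of this transition in D. sechellia.

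Each value below is a log2 ratio of the sample to the common reference, averaged over the 2 spots of an array element. A change is the early pupal mean minus the larval mean on that scale, so that a positive change means a higher level in early pupae. Of 13824 elements on the array, 4479 had values in D. sechellia. A gene name was available for 3215 of these, which stood for 3070 genes, and a gene was represented by its first element. A gene was called higher or lower when limma gave an adjusted p-value below 0.05 over all 4479 elements and the change was at least 1.5-fold. Since each stage was 1 pool, the spread between pools was taken from the replicated hybrid pools, and it was the prior of the model alone for 1144 genes without hybrid values. P-values of D. sechellia therefore assume that its pools vary as hybrid pools do.

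Repeat arrays lay close together. The median SD over the 3 arrays, with none merged, was 0.14 for early pupae and 0.17 for larvae. The early pupal value counts the nearly identical pair described next as 2 arrays, so these medians are not directly comparable. Early pupal arrays 1 and 3 were nearly identical: the differences between their duplicate spots correlated at 0.95, against -0.02 and 0.00 for the other early pupal pairs, and they were averaged to count as 1 array. Larval array 1 was deposited with values of 2 decimals only. Hybrid larval array 1 stood apart from its repeats, with SDs of 0.70 and 0.68 of its differences to the other arrays, against 0.37 between those arrays. Markers of other origin could be checked only in part, since the genes for the larval serum proteins, the yolk proteins and the myosin heavy chain had no values on these arrays.

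In early pupae 146 genes were higher and 117 were lower than in larvae, 263 of 3070 genes or 8.57% (4.76% higher and 3.81% lower). Over all elements, named or not, 402 of 4479 or 8.98% were called. The smallest called rise was 1.23 (2.35-fold) and the smallest called fall was 1.22 (2.33-fold), so that changes between these and 1.5-fold were not resolved at the spread of the pools. In fact 1514 genes differed by at least 1.5-fold, and 856 had an unadjusted limma p-value below 0.05, 399 of them higher and 457 lower. The median change of all genes was 0.08 and the middle of the distribution ran from -0.58 to 0.57 between its quartiles. At 8-fold or more, 15 genes were higher and 24 were lower. The early pupal and larval arrays did not overlap in any of the 263 called genes, but this was so for 71.0% of all genes, since repeats of 1 pool varied little. Of the called genes, 61 that were higher and 29 that were lower were known only by a CG number. The share of such genes among all 3070 was not counted, so these counts only describe the called genes. Called genes were found on each major chromosome arm of D. melanogaster, with shares higher of 5.40% on 2L, 4.17% on 2R, 5.77% on 3L, 4.62% on 3R and 3.92% on X. The shares lower were 3.37%, 4.63%, 3.46%, 3.96% and 3.23% on the same arms. Of 30 genes on chromosome 4, 2 were lower.

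**Figure D1:**
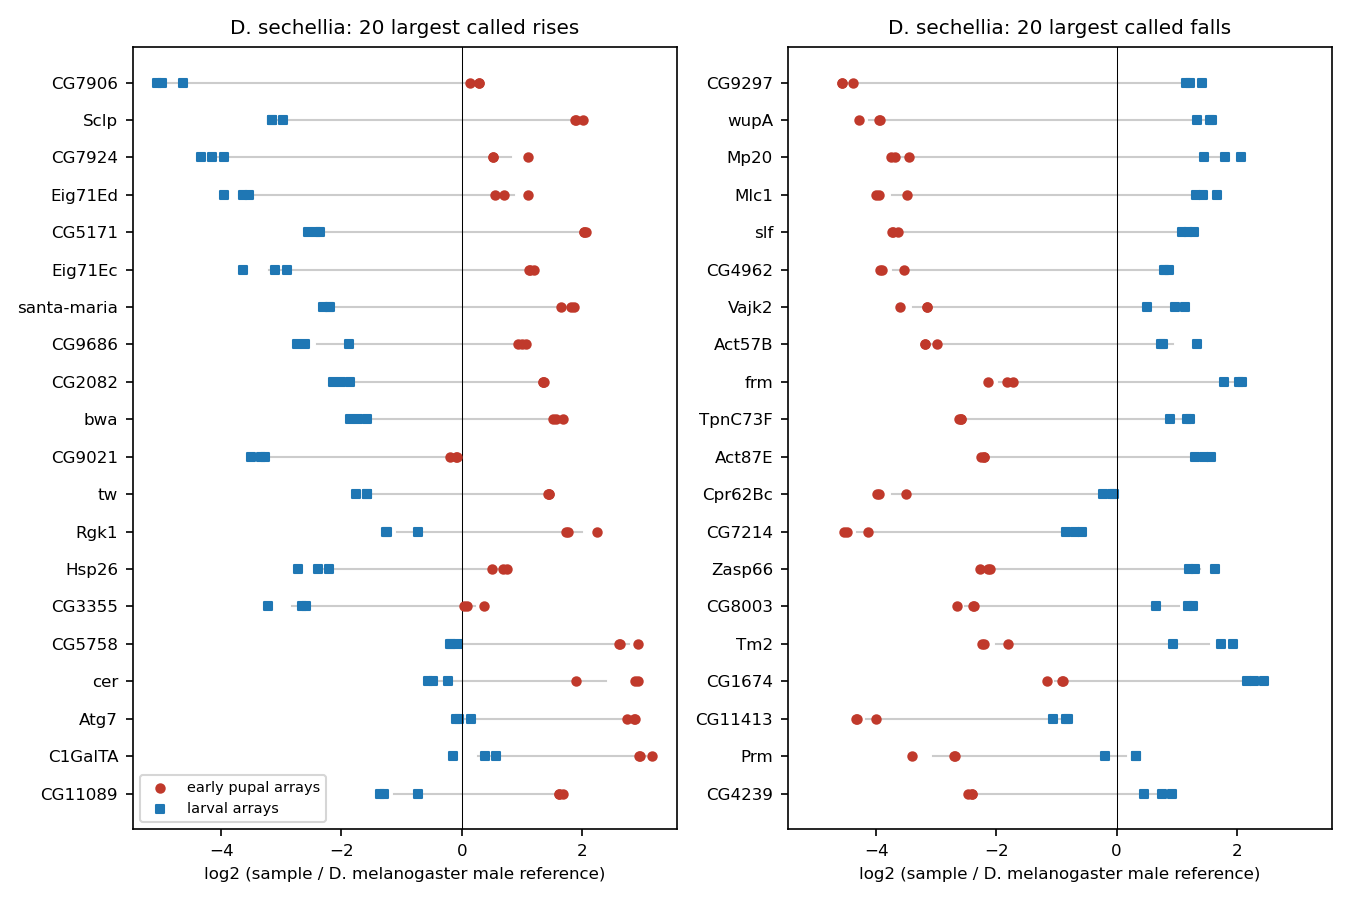
The log2 ratio of sample to common reference (x axis) is plotted for each early pupal and each larval array of D. sechellia, for the 20 genes with the largest called rise and the 20 with the largest called fall. Early pupal and larval points do not overlap in any of these genes, which were picked for their large changes. The same holds for 71.0% of all genes. The changes between the means run from 2.78 to 5.10 among the rises and from -3.15 to -5.74 among the falls.

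The steepest median falls of the lists described here were those of the thin and thick filaments of muscle. Oxidative phosphorylation had more called genes than the 3 muscle lists together (14 against 12). Lists of the contractile apparatus held 20 measured genes, and all 20 had a change below 0; 12 were called lower and 0 were called higher, with a median change of -2.48. This count was the same whichever array was left out, and the median over elements with hybrid values was -3.38. Among all 3070 genes, 4.76% were called higher and 3.81% lower, the shares to set beside each list below. Of 11 thin filament genes 8 were lower, of 2 thick filament genes both were lower, and of 7 genes of the Z disc and calcium handling 2 were lower. The median changes of these lists were -3.54, -4.20 and -0.53, so the Z disc and calcium list fell far less. These are whole animals, and fewer muscle cells and less RNA per muscle cell cannot be told apart. wupA on X, which encodes troponin I, the inhibitory subunit of the troponin complex, read -3.96, -4.28 and -3.94 on the early pupal arrays, against 1.59, 1.33 and 1.55 on the larval arrays. It fell by 5.60 ± 0.63 (SE) or 48.5-fold, with a limma adjusted p of 2.6e-05. Mp20 on 2R, a calponin-like protein of muscle, read -3.69, -3.46 and -3.76 in early pupae and 1.45, 2.06 and 1.80 in larvae. It fell by 5.36 ± 0.56 (41.2-fold). Mlc1 on 3R, the alkali light chain of myosin, read -4.01, -3.48 and -3.95 in early pupae and 1.32, 1.43 and 1.67 in larvae. It fell by 5.20 ± 0.51 (36.8-fold). In each of these 3 genes, the lowest larval array lay more than 4 log2 units above the highest early pupal array.

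Other members of the sarcomere fell less. Troponin C of TpnC73F fell by 3.69 and tropomyosin of Tm2 fell by 3.54, while Prm, which encodes paramyosin of the thick filament core, fell by 3.21. The Z-disc protein of Zasp66 was at -2.14, -2.27 and -2.11 on the early pupal arrays and at 1.21, 1.64 and 1.31 on the larval arrays, a fall of 3.58. RyR, the calcium release channel of the sarcoplasmic reticulum, fell by 2.08, and the calponin-family gene Chd64 by 1.59. Among the actins, Act57B, Act87E and Act79B had changes of -4.03, -3.66 and -2.87, whereas Act88F, the actin of the adult flight muscles, had a change of -0.86 (adjusted p = 0.17). Actin genes are nearly identical in sequence, so a cDNA spot of one can bind transcripts of the others, and the order among them is uncertain. The other members that were not called were Lasp, cpb, l(2)efl, CAP, tn, Ilk and Scp1, with changes of -0.25 to -1.19. Several of these, such as Ilk (integrin-linked kinase) and the capping protein subunit of cpb, are used in many cell types besides muscle.

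Genes of energy metabolism were lower as a group. Glycolysis and sugar storage held 15 measured genes, of which 9 were lower and 0 higher, with a median change of -2.06. Glyp, the glycogen phosphorylase that releases sugar from stored glycogen, read -3.07, -3.08 and -3.06 in early pupae, against -0.46, -0.21 and 0.17 in larvae, and fell by 2.90 ± 0.39 (7.49-fold, limma adjusted p = 0.00014). Enolase of Eno read -1.35, -1.06 and -1.38 in early pupae and 1.39, 1.65 and 1.39 in larvae, a fall of 2.69 ± 0.42 (6.46-fold). Falls were also called for Gpdh1 (glycerol-3-phosphate dehydrogenase, 2.87), Gapdh1 (glyceraldehyde-3-phosphate dehydrogenase, 2.46), the aldolase gene Ald1 (2.37), the triose phosphate isomerase gene Tpi (2.24), the phosphofructokinase gene Pfk (2.07), the glucose phosphate isomerase gene Pgi (2.06) and UGP (1.83), whose product makes UDP-glucose. A further element of UGP gave -1.19 and was not called (limma adjusted p = 0.11). With the elements of a gene averaged, the call of UGP was lost and the count of 9 became 8. The trehalase gene Treh (-0.80), the glycogen synthase gene Glys (-1.15) and the hexokinase gene Hex-A (0.53) were not called.

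Oxidative phosphorylation, in which the respiratory chain of mitochondria drives ATP synthesis, held 34 measured genes in 5 lists. Of these 14 were lower and 0 were higher, with a median change of -1.52. In all, 30 had a change below 0, and the 4 above 0 were among 5 copies active mainly in the male germ line. ATP synthase had 6 of 9 subunits lower (median change -1.76), complex I 3 of 14 (-1.27), complex II 2 of 4 (-1.73), complex IV 2 of 5 (-0.60) and complex III with cytochrome c 1 of 2 (-1.76). blw, the alpha subunit of ATP synthase, read -0.18, -0.16 and -0.06 on the early pupal arrays and 2.22, 2.48 and 2.28 on the larval arrays. It fell by 2.46 ± 0.37 (5.52-fold, limma adjusted p = 0.00050). The largest fall of the group was that of ND-MLRQ of complex I at 2.74 ± 0.74, and the complex IV genes COX8 and levy fell by 2.61 and 2.37. SdhD and SdhC of complex II fell by 2.23 and 2.19, and UQCR-Q of complex III by 1.98. The remaining called subunits of ATP synthase (ATPsynG, ATPsyndelta, ATPsynB, ATPsynC and ATPsynbeta) had changes of -2.40 to -1.53, and those of complex I (ND-ASHI and ND-15) of -1.67 and -1.51. The count of 14 became 25 when hybrid larval array 1, the array that stood apart, was left out of the estimate of spread.

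The citrate cycle list had 2 of 10 genes lower, with a median change of -0.96. These were Men-b, a malic enzyme, which fell by 1.97, and the isocitrate dehydrogenase subunit Idh3a, which fell by 1.36. Lipid metabolism moved in both directions, with 1 of 17 genes higher, 1 lower and a median of -0.27. Over all genes 4.76% were higher and 3.81% lower. FASN1, the fatty acid synthase of the fat body, read -1.15, -1.99 and -1.18 in early pupae and 1.06, 1.47 and 1.56 in larvae, and fell by 2.94 (7.70-fold). The ceramidase gene bwa was higher by 3.33 (10.1-fold). Its arrays were at 1.51, 1.69 and 1.57 in early pupae and at -1.72, -1.58 and -1.86 in larvae.

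Cuticle genes were mostly at their lower level in early pupae. The cuticle is a layered mesh of chitin and protein, and each stage lays down its own. Of 20 cuticle protein genes, 17 had a change below 0; 6 were lower and 1 was higher, with a median of -1.17. Vajk2 on 2L read -3.15, -3.61 and -3.16 in early pupae, against 0.50, 0.97 and 1.13 in larvae, a fall of 4.25 ± 0.43 (19.1-fold). Cpr62Bc on 3L, a chitin-binding cuticle protein of the Rebers and Riddiford family, read -3.95, -3.50 and -3.98 in early pupae and -0.22, -0.05 and -0.08 in larvae, a change of -3.62 ± 0.67 (12.3-fold). The other falls were those of Vajk3 (3.00), obst-E (2.44), Cpr100A (2.16) and Cpr92F (2.02). The exception among the called genes was Cpr12A on X, at 0.90, 0.92 and 0.91 in early pupae and at -1.36, -1.50 and -0.65 in larvae, which was higher by 2.08 ± 0.43 (4.23-fold). slf on 2L, which encodes a secreted lectin-like protein of the cuticle and was on none of the lists, had the fifth largest fall. It read -3.72, -3.64 and -3.73 in early pupae and 1.08, 1.18 and 1.29 in larvae (4.86 ± 0.66, 29.1-fold).

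Enzymes that make or break down chitin showed no common direction, with 1 of 16 higher, 1 lower and a median change of 0.00. The shares over all genes were 4.76% higher and 3.81% lower. Cht5, a chitinase used in molting, was at 0.19, -0.03 and 0.13 in early pupae and at -2.78, -2.21 and -2.24 in larvae. It was higher by 2.48 ± 0.43 (5.57-fold, limma adjusted p = 0.0070). Idgf6, a chitinase-like secreted protein, fell by 1.63, and the chitin synthase gene kkv had a change of 0.22 (adjusted p = 0.75). Of 4 tanning genes 1 was higher, speck, which encodes an arylalkylamine N-acetyltransferase that consumes dopamine and had a change of 1.93. Both measured genes of the salivary gland glue, the secretion that fixes the puparium to its substrate, were lower. Sgs5 fell by 2.07 to a mean of -4.85 in early pupae, against -2.78 in larvae, and ng3 fell by 1.89. In D. simulans Sgs5 changed by -5.29, with a larval mean of 0.41 that lay well above that of D. sechellia larvae, and the difference between the changes was not called (adjusted p = 0.47).

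The largest rises were led by genes that lay far below the reference at the other stages. CG7906 on 3L read 0.29, 0.13 and 0.29 in early pupae and -4.99, -4.63 and -5.06 in larvae. It was higher by 5.10 ± 0.43 (34.3-fold, limma adjusted p = 9.0e-05), and its late pupal and adult means were -5.09 and -4.83. CG7924, also on 3L, was higher by 4.97 (31.3-fold), with means of -5.00 and -5.03 in late pupae and adults. The ratio of these genes to the mixed-stage reference was thus near 0 in early pupae and close to -5 at each other stage.

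Eig71Ed and Eig71Ec, members of a cluster of small secreted proteins on 3L that ecdysone induces in D. melanogaster, had the same pattern. Eig71Ed read 0.56, 1.10 and 0.71 in early pupae, against -3.54, -3.63 and -3.95 in larvae, and was higher by 4.58 ± 0.59 (23.9-fold, limma adjusted p = 0.00011). Eig71Ec read 1.12, 1.20 and 1.13 in early pupae and -3.10, -3.64 and -2.90 in larvae, and was higher by 4.38 ± 0.43 (20.8-fold). Their late pupal means were -4.22 and -3.22, and their adult means -4.66 and -3.53. Of 6 ecdysone-induced genes measured, 3 were higher and 0 lower. The third was Eip63E, a cyclin-dependent kinase, which was higher by 1.92. Eig71Eh and Eig71Ee of the same cluster had changes of -0.70 and -0.54 (adjusted p = 0.32 and 0.45), so not all members of the cluster moved alike. None of 6 transcription factor genes of the ecdysone response was called, with changes of -0.82 for Eip93F to 0.72 for tai and a median of -0.09. The genes for the ecdysone receptor and the early factors br and Eip75B were not among those 6. Enzymes and transporters of ecdysteroid synthesis had 0 of 3 called (median 0.26).

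Further large rises came from genes of varied function. Sclp on X was at 1.90, 2.02 and 1.89 in early pupae and at -2.98, -3.16 and -3.15 in larvae, a change of 5.06 ± 1.42 (33.3-fold, limma adjusted p = 0.034). Its SE was the largest of any called gene, and the call did not hold with robust moderation (adjusted p = 0.16). santa-maria, a scavenger receptor of the CD36 family that takes up carotenoids, read 1.82, 1.65 and 1.86 in early pupae and -2.21, -2.30 and -2.19 in larvae, higher by 3.98 (15.8-fold). The small heat shock gene Hsp26, which ecdysone induces in D. melanogaster, read 0.69, 0.51 and 0.76 in early pupae and -2.20, -2.73 and -2.39 in larvae, higher by 3.06 (8.34-fold), and was the only called gene of 10 heat shock and chaperone genes (median 0.34). tw, which encodes a protein O-mannosyltransferase, was higher by 3.09, Rgk1, a small GTPase, by 3.08, and C1GalTA, a galactosyltransferase of mucin-type sugar chains, by 2.79. cer, an inhibitor of cathepsin-like proteases, was higher by 2.82, with 1 early pupal array at 1.90 and the others at 2.94 and 2.88. The remaining genes among the 20 largest rises, known by CG numbers except for bwa and Atg7, changed by 2.78 to 4.49. The next gene below these 20 had a change of 2.71. At the other end, CG9297 on 3R had the largest fall of all, with -4.56, -4.39 and -4.57 in early pupae and 1.22, 1.42 and 1.15 in larvae (a change of -5.74 ± 0.46, 53.3-fold). CG4962, CG7214 and CG11413 had changes of -4.54, -3.62 and -3.26 and were far higher in late pupae, with means of 2.40, 3.37 and 2.88 against -3.72, -4.32 and -4.16 in early pupae. The call of CG11413 did not hold under 3 of the alternatives. The other large falls outside the lists were those of frm on 3L (-3.92), CG8003 on 3L (-3.55), CG1674 on chromosome 4 (-3.33) and CG4239 on X (-3.15). The smallest of the 20 largest falls was -3.15, and the next gene was at -3.14.

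Most proteasome genes had a change above 0, and some were called higher. The proteasome, which degrades ubiquitin-tagged proteins, consists of a barrel-shaped core and a regulatory particle that recognises and unfolds the substrate. Of 30 measured genes 28 had a change above 0, with a median of 0.91. Of the 30, 6 were higher and 0 lower. Among all genes, 1649 of 3070 had a change above 0 and 4.76% were called higher. The 12 Rpn and Rpt subunits of the regulatory particle had 4 called and a median of 1.24, and the 9 Prosalpha and Prosbeta subunits of the core had 1 called and a median of 0.72. A further 6 copies active mainly in the male germ line had 0 called and a median of 0.23. The remaining called gene, Uch-L5, was in none of these subsets. Rpn10, a ubiquitin receptor, read 1.98, 2.05 and 1.96 on the early pupal arrays and -0.06, 0.20 and 0.36 on the larval arrays. It was higher by 1.84 ± 0.36 (3.59-fold, limma adjusted p = 0.0044). Rpn12 changed by 1.93, Uch-L5, a deubiquitinase of the regulatory particle, by 1.81, Rpn11 by 1.54, the ATPase Rpt6 by 1.51 and the core subunit Prosalpha6 by 1.34. The call of Prosalpha6, with an adjusted p of 0.042, was the weakest of these and was lost in 7 of the alternative analyses. Without hybrid larval array 1 the count of 6 became 11.

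Ubiquitin, autophagy and cell death genes had 15 of 17 changes above 0, with 2 higher, 0 lower and a median of 0.57. Over all genes 4.76% were called higher. Atg7, the E1-like enzyme that autophagosome formation needs, read 2.87, 2.75 and 2.89 in early pupae, against -0.04, 0.16 and -0.10 in larvae, and was higher by 2.80 ± 0.71 (6.98-fold, limma adjusted p = 0.019). The polyubiquitin gene Ubi-p5E was higher by 1.96. The other autophagy genes ranged from -0.86 for Atg5 to 0.86 for Atg3, and none was called. Lysosome and proton pump genes had 0 of 19 called and a median of -0.57, within which 12 V-ATPase subunits were at -1.17 to -0.30, whereas the cathepsin genes CtsL1 and CtsB were at 0.85 and 0.94. Sesn, which encodes sestrin, an inhibitor of growth signalling through TOR, was the only called gene of 5 in the insulin and TOR list (median 0.63). It was at 0.98, 1.13 and 0.93 in early pupae and at -1.54, -1.57 and -1.65 in larvae, higher by 2.63 ± 0.74 (6.19-fold), and a further element of the gene gave 0.91.

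**Figure D2:**
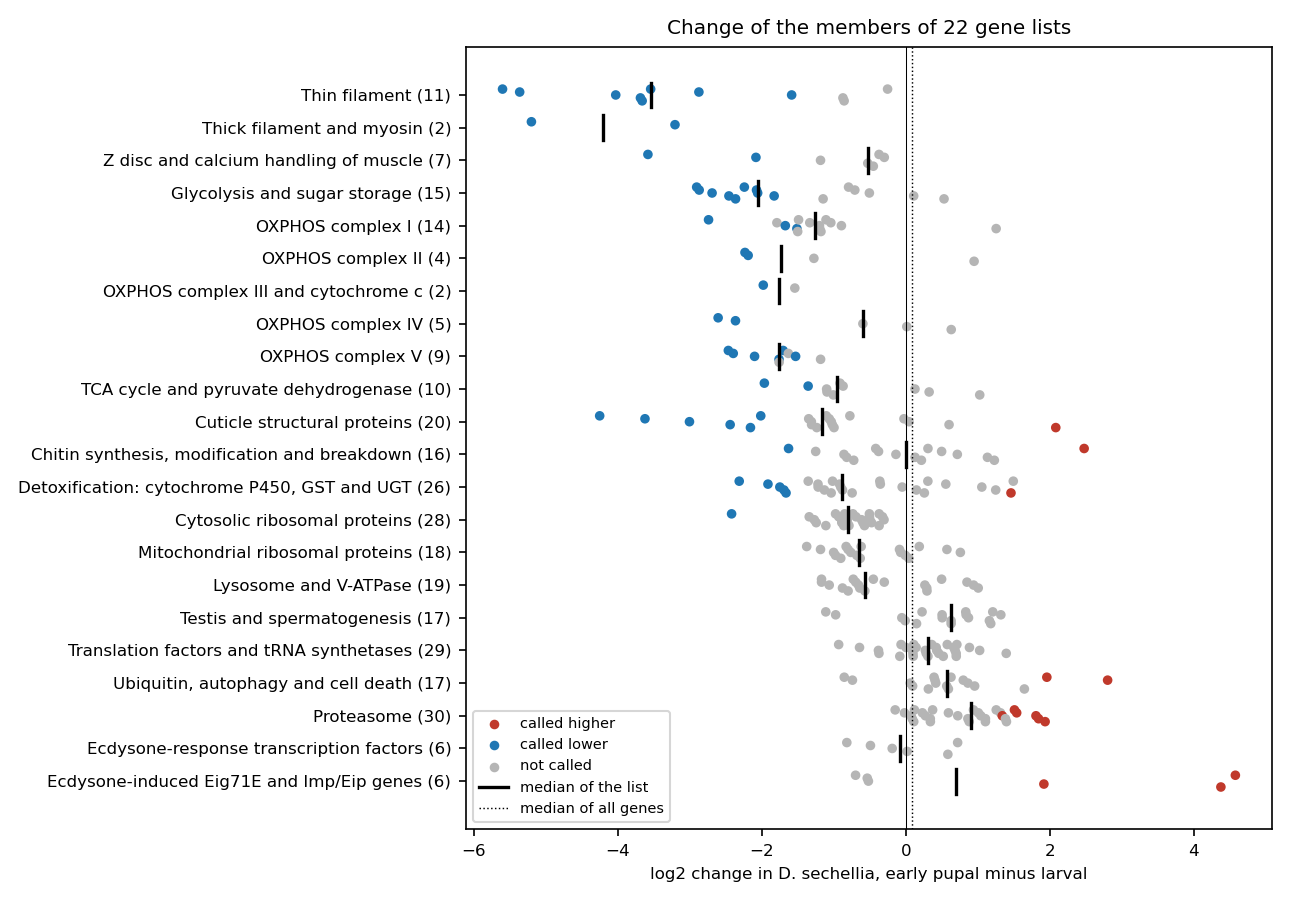
The change from larva to early pupa in D. sechellia (x axis, early pupal minus larval log2 ratio) is plotted for every measured member of the longer and more affected gene lists, 1 row per list, with called genes marked and the median of each list as a bar. Thin filament, glycolysis and ATP synthase genes lie below 0 (medians -3.54, -2.06 and -1.76), and 28 of 30 proteasome genes lie above 0.

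Genes of protein synthesis had few calls. All 28 cytosolic ribosomal protein genes had changes below 0 with a median of -0.80, yet 1 was called, RpL39, and a second element of this gene gave 0.38 against -2.42 for the first. The count of 1 ranged between 0 and 4 when single arrays were left out (0 without early pupal array 2, 2 without larval array 1 and 4 without hybrid larval array 1). Mitochondrial ribosomal proteins had 0 of 18 called (median -0.66), translation factors and tRNA synthetases 0 of 29 (0.31) and the secretory pathway 0 of 22 (0.30). Detoxification genes had 5 of 26 lower and 1 higher, with a median of -0.89. The falls were those of the cytochrome P450 genes Cyp9f2 (2.31), Cyp4p3 (1.75) and Cyp6a23 (1.69) and the glutathione S-transferase genes GstD1 (1.92) and GstE8 (1.66). Of these, 4 lacked hybrid values, GstD1 being the exception, and over elements with hybrid values alone the count was 1. It was 8 without early pupal array 2. Ugt50B3, a glycosyltransferase, was higher by 1.46.

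Lists of discs and growing tissue had few calls. For all genes the share called higher was 4.76%. ed, which encodes the cell adhesion protein echinoid, was the 1 called gene of 11 for disc morphogenesis and junctions (median 0.48), with 1.50, 1.57 and 1.50 in early pupae and -0.42, -0.79 and -0.25 in larvae (higher by 2.02). thr, a subunit of the separase complex that parts chromosomes, was the 1 called gene of 8 for the cell cycle (median 0.38), higher by 1.31 with an adjusted p of 0.047, and that call was lost in 12 alternative analyses. No gene was called in the lists for basement membrane (7 genes, median 0.07), immunity and haemocytes (4, 0.37), fat body storage and carrier proteins (5, 0.48), digestive enzymes (7, -0.51), neurons and synapses (12, 0.12) and photoreceptors (7, -0.06). The 7 digestive enzymes were all below 0, between -1.52 and -0.25. Testis genes had 0 of 17 called with a median of 0.63, and the 19 male germ line copies of proteasome, mitochondrial and translation genes had 0 called with a median of 0.12. In all, members of the 38 lists made up 45.3% of the called falls and 13.7% of the called rises, against 14.01% of all genes measured. The lists were chosen with earlier results of these data known, so these shares only describe coverage and are no test of the lists.

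The D. sechellia arrays of late pupae (72 h after puparium formation) and adults (1.5 h after eclosion) were set beside these values, as stage means with near-identical arrays merged. The early pupal arrays are shared by all these readings, so only levels are given. Of the 146 genes called higher, 126 (86.3%) had their highest of the 4 stage means in early pupae, against 31.2% of all genes. Of the 117 genes called lower, 101 (86.3%) had their lowest mean in early pupae, against 21.4% of all genes. Being called higher or lower against larvae itself favours an extreme at the early pupal stage. In the order larval, early pupal, late pupal and adult, the median levels of the genes called lower were 0.90, -1.30, -0.02 and 0.35. Those of the genes called higher were -0.71, 1.26, -0.01 and 0.11.

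Groups differed in how the level returned. Muscle genes had medians of 1.03, -2.10, -0.01 and 0.73 at the larval, early pupal, late pupal and adult stages, but some remained low in late pupae, such as Mp20 at -2.73 and Zasp66 at -1.84, whose adult means were 1.02 and 0.95. Glycolytic genes had medians of 0.24, -0.68, -0.41 and 0.32 at the 4 stages. Cuticle genes reached their highest median in late pupae, with medians of -0.31, -1.63, 1.24 and -1.03 in the order of the stages. Vajk2, for example, was at 2.61 in late pupae and at -2.08 in adults. Proteasome genes were lowest in late pupae, with medians of -0.55, 0.29, -0.78 and 0.43. Of the 20 largest falls, 14 had a late pupal mean and 17 an adult mean that lay nearer to the larval than to the early pupal mean or beyond it; of the 20 largest rises, 17 and 15 had.

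**Figure D3:**
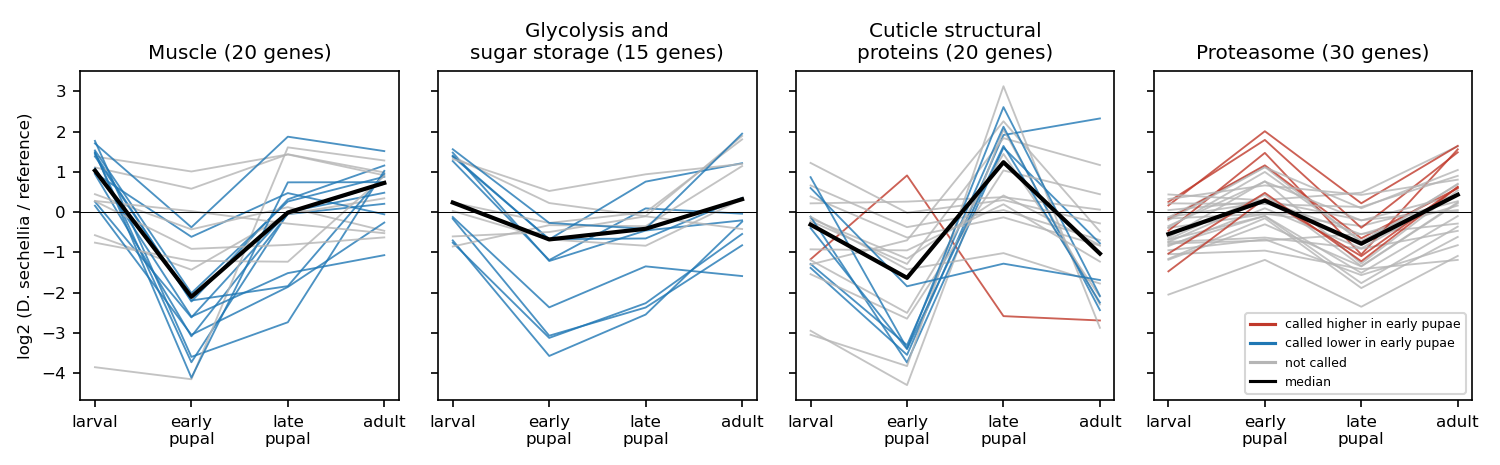
Mean log2 ratios to the common reference (y axis) are plotted at the larval, early pupal, late pupal and adult stages of D. sechellia (x axis), 1 thin line per gene and a thick line for the median of each gene list. Muscle genes have their lowest median in early pupae (-2.10), cuticle genes their highest in late pupae (1.24), and proteasome genes stand at 0.29 in early pupae, between lower medians of -0.55 in larvae and -0.78 in late pupae.

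Most of the genes called in D. sechellia had a change of the same sign in the other groups, whether called there or not. The same transition was measured in D. simulans for 2385 of the genes, in the hybrids for 1926 and in D. melanogaster for 2164. Across genes, which are not independent replicates, changes in D. sechellia correlated with those in D. simulans at Pearson's r = 0.78 (Spearman's rho 0.68), in hybrids at 0.79 (0.70) and in D. melanogaster at 0.65 (0.47). Of the D. sechellia calls measured there, 212 of 219 had the same sign in D. simulans, 195 of 196 in hybrids and 197 of 207 in D. melanogaster. For all genes the same sign was found in 74.3%, 74.7% and 64.8%. Called genes numbered 126 (5.28%) in D. simulans, 372 (19.3%) in hybrids and 73 (3.37%) in D. melanogaster, the hybrids being the group with 3 pools per stage. Of the D. simulans calls, 37 of 52 rises and 51 of 74 falls were called in D. sechellia too (71.2% and 68.9%), which was 33.3% and 47.2% of the D. sechellia rises and falls measured in both. For hybrids, 75.9% of the D. sechellia rises and 81.2% of its falls were called in both, which was 49.4% and 33.5% of the hybrid rises and falls. For D. melanogaster these shares were 20.5% and 36.7% of the D. sechellia calls and 85.7% and 73.3% of the D. melanogaster calls. The model used the same spread of a gene for all groups, so calls in different groups are not independent.

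Changes in D. sechellia were larger in size. Without regard to sign, the median change was 0.62 for D. sechellia against 0.36 for D. simulans over the same genes, 0.65 against 0.31 in hybrids and 0.62 against 0.37 in D. melanogaster. The change was the larger in D. sechellia for 67.5% of genes beside D. simulans, 74.0% beside hybrids and 67.2% beside D. melanogaster. The spread of all values was also larger on the D. sechellia early pupal arrays, whose ratios had an SD of 1.12 over elements measured in every group, against 0.96 to 0.97 on its larval arrays. The early pupal SDs were 0.98 to 1.09 in D. simulans, 1.06 to 1.16 in hybrids and 1.00 to 1.02 in D. melanogaster, and the larval SDs in the same groups were 0.81 to 1.07, 1.00 to 1.03 and 0.83 to 0.96. The part of this spread in these sizes was not tested. With all arrays scaled to the same SD, 113 genes were called higher and 97 lower in D. sechellia. The sizes of change were not compared between groups under that scaling.

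Muscle genes fell in each group. Over the members measured in both, their median change was -3.21 in D. sechellia against -2.48 in D. simulans, -3.38 against -2.69 in hybrids and -3.21 against -1.87 in D. melanogaster. wupA changed by -5.60 in D. sechellia, -4.95 in D. simulans, -5.37 in hybrids and -4.97 in D. melanogaster. Eig71Ed changed by 4.58, 4.44, 4.89 and 5.50 in these 4 groups. The proteasome medians were 0.94 in D. sechellia against 0.42 in D. simulans over shared members, 0.97 against 0.28 in hybrids and 0.97 against 0.06 in D. melanogaster. No single proteasome gene had a difference between groups that passed the test.

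The differences of the changes were tested by limma for every shared gene. For D. simulans 1 of 2385 genes was called (0.0419%), with 84 at an unadjusted p below 0.05. In hybrids 0 of 1926 were called (0.0%), with 172 at an unadjusted p below 0.05 and a smallest adjusted p of 0.61. In D. melanogaster 0 of 2164 were called (0.0%), with 209 at an unadjusted p below 0.05 and a smallest adjusted p of 0.54. The SE of a difference had a median of 0.61 against D. simulans and D. melanogaster and of 0.49 against hybrids, and changes of this size between groups were below what the design could call. Besides Cpr100A, 6 called genes of D. sechellia had the opposite sign in D. simulans, among them the glue gene ng3 at -1.89 in D. sechellia and 0.61 in D. simulans (adjusted p of the difference 0.47).

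**Figure D4:**
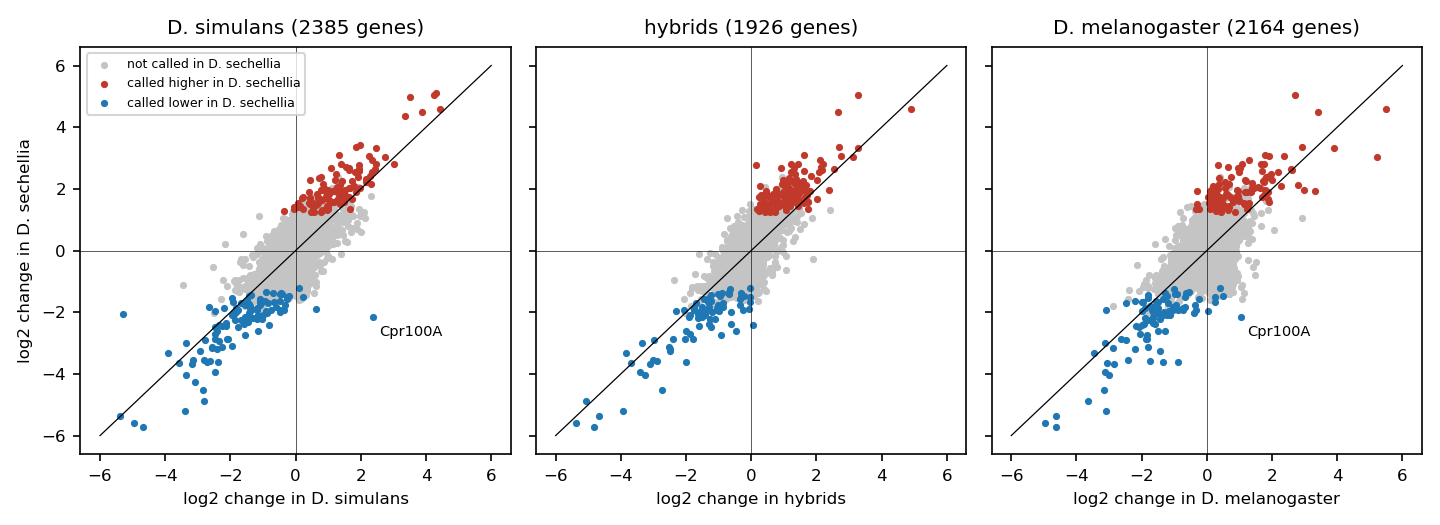
The change from larva to early pupa in D. sechellia (y axis) is plotted against the change in D. simulans, hybrids and D. melanogaster (x axis of each panel, all log2), 1 point per gene, with genes called in D. sechellia in colour and a line of equal change. Most called genes keep their sign, and Cpr100A lies at -2.16 on the D. sechellia axis and at 2.38 on the D. simulans axis.

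The gene called for a different change was Cpr100A on 3R, a cuticle protein of the Rebers and Riddiford family. In D. sechellia it read -3.88, -3.20 and -3.88 in early pupae and -1.64, -1.24 and -1.28 in larvae, a fall of 2.16 ± 0.48 (4.46-fold, limma adjusted p = 0.0090). In D. simulans it read 0.69, 1.10 and 0.85 in early pupae and -1.58, -1.71 and -1.22 in larvae, a change of 2.38. Larvae of both species were thus at similar levels, and the early pupae were on opposite sides. The difference between the changes was -4.54, with an adjusted p of 0.016. In hybrids it read -3.43, -3.40 and -3.22 in early pupae and -2.11, -1.64 and -1.79 in larvae, a change of -1.50. In D. melanogaster it read -1.23, -1.20 and -0.79 in early pupae and -1.85, -2.09 and -2.21 in larvae, a change of 1.05 whose difference from D. sechellia was not called (adjusted p = 0.54). The early pupal mean was -3.35 in hybrids and -3.54 in D. sechellia, and the larval means were -1.85 and -1.39 in these groups, with -1.50 in D. simulans. All groups were high later, with late pupal and adult means of 1.92 and 2.33 for D. sechellia, 2.04 and 3.35 for D. simulans, 1.69 and 2.16 in hybrids and 1.43 and 1.51 in D. melanogaster. In the species with 1 pool, the early pupal level of this gene rests on a single pool of males.

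**Figure D5:**
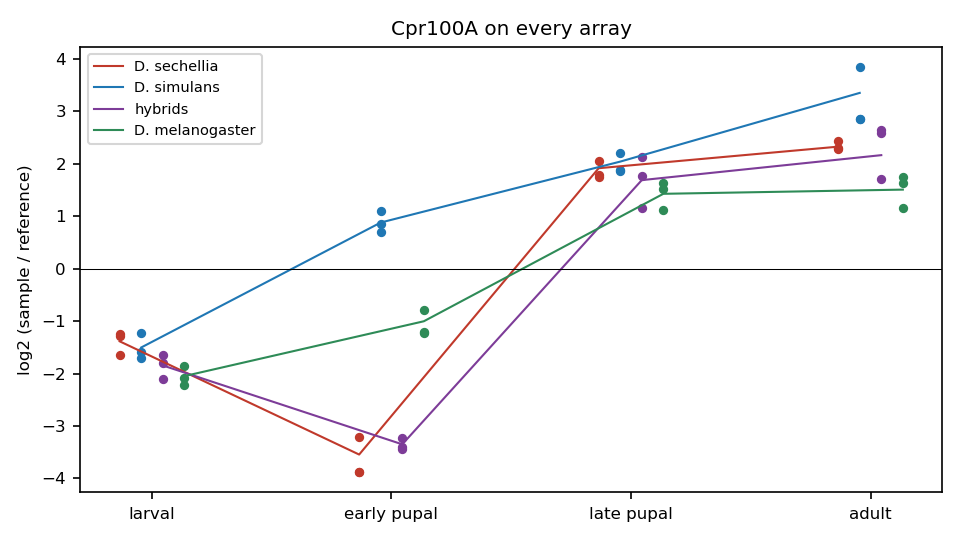
The log2 ratio of Cpr100A to the common reference (y axis) is plotted at the larval, early pupal, late pupal and adult stages (x axis). Each array of D. sechellia, D. simulans, the hybrids and D. melanogaster is a point, and lines join the stage means. The early pupal arrays of D. sechellia (-3.88 to -3.20) lie below its larval arrays, while those of D. simulans (0.69 to 1.10) lie above.

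Where a gene had more than 1 element on the array, the elements served as a check. Of 137 such genes, 98 had changes of the same sign in all elements. Among 18 called genes with a further element, 16 of the further elements had the same sign and 11 were called in the same direction. The called genes whose further element had the other sign were RpL39 and Mipp2, at -2.42 and 0.38 and at -1.50 and 0.56.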

How the data were processed

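The deposited table held, per the labels, log2 ratios of sample to common reference, with the dyes never swapped; the authors had filtered dim spots and normalised the arrays by a joint loess, and background and intensity values were not used here. Both spots of an element were averaged. Near-identical arrays (correlation of duplicate-spot differences above 0.5) were merged, the arrays of each pure species and stage were averaged to 1 unit, and each hybrid pool was 1 unit, except that adult hybrid arrays 1 and 2 were merged, leaving 2 units at that stage. This left 7 residual degrees of freedom (23 units, 16 groups). limma 3.58.1 (R 4.3.3) was fitted to all groups. Benjamini-Hochberg adjustment was over the 4479 elements of D. sechellia for its own change. Changes of another group, and differences from it, were adjusted over the elements measured in both. These were 3554 for D. simulans, 2888 for hybrids and 3230 for D. melanogaster. The fit was tested on simulated data with known changes and the spread of the fit itself. Of changes of 1, 2, 3 and 4 log2 units, 8%, 76%, 100% and 100% were recovered. Among those of the 4479 elements that were given no change, there were 11 false calls.

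Elements were named through the annotation tables, with chromosomes of the Release 6 assembly of D. melanogaster. Named in the text are the 20 largest called rises and falls, called members of 38 gene lists and genes called between groups; members not called illustrate a list. Members and lists were chosen with earlier results of these data known. Alternatives left out each array, scaled or centred arrays, kept near-identical arrays, changed filters and the variance model, and treated arrays or spots as replicates.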

Additional observations from a re-analysis of the deposited data

Results flagged for a closer look

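The change of Cpr100A from larva to early pupa differed between D. sechellia and D. simulans by -4.54 on the log2 scale (limma adjusted p = 0.016), with a change of -2.16 in D. sechellia and 2.38 in D. simulans. It was the only 1 of 2385 genes whose change differed between these species in that test. The difference ranged from -4.88 to -4.13 over the alternatives that could be run, and it was called in each of them.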

How the results depend on the processing

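When every array was counted as a replicate, calls rose to 748 higher and 762 lower over all 48 arrays. Over the 12 arrays of D. sechellia they rose to 755 and 770. A t-test as in the methods, with the 6 spots of a stage as replicates, gave 740 and 761 after Benjamini-Hochberg adjustment. With its p-values multiplied by 6 it gave 715 and 739. The permutation-based selection of genes that came before the t-test in the study was not repeated. Repeats of 1 pool do not measure the spread between pools. With each of the 48 arrays as a replicate, differences of changes numbered 418 against D. simulans, 296 against hybrids and 698 against D. melanogaster. The labels' replicate numbers did not pair arrays (correlations of deviations between stages 0.04, 0.03 and -0.01), and a fit with the replicate number as a block gave 755 higher and 770 lower. Leaving out 1 array at a time gave 125 to 255 higher and 105 to 234 lower; leaving out hybrid larval array 1 gave the upper ends (255 and 234), and leaving out D. sechellia early pupal array 2 gave 194 lower. For hybrids these runs gave 0 to 1 differences. All other alternatives kept these gene counts within 1.5 times. Of 97 named genes, 80 kept direction and call throughout and no direction reversed; the others, most often thr, RpL39 and Prosalpha6, lost the call in at least 1 alternative. Array number and the spread of hybrid pools limit the precision.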
